A study of Mus musculus with 9 samples.

Results

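The clustered histone genes encode the core and linker histones that package newly replicated DNA. They were taken as every protein coding gene of the count table whose symbol begins with Hist1h, Hist2h, Hist3h or Hist4h. This gave 68 genes of 43346 listed genes, of which 22032 were protein coding. By product, 6 encode the linker histone H1, 19 encode H2A, 18 encode H2B, 12 encode H3 and 13 encode H4. The Hist1 cluster on chromosome 13 held 55 of them, the Hist2 cluster on chromosome 3 held 10, the Hist3 cluster on chromosome 11 held 2, and the single Hist4 gene lay on chromosome 6.

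Whole liver of 12-week-old C57/BL6 mice was profiled by RNA-Seq in 9 libraries, 3 a group. Vehicle-treated mice gave the 0 h group, the liver tissue taken out at surgery (the resection specimen, called the baseline here), and a group of remnant livers 40 h after 70% partial hepatectomy. NSC-treated mice gave the remnant livers 40 h after the same operation; NSC-87877 is a phosphatase inhibitor that acts on SHP2 and also on SHP1, and was given at 7.5 mg/kg per dose, 2 times daily, from 12 h before surgery by the labels. No resection specimen of an NSC-treated mouse was among the libraries, so the same 3 vehicle-treated resection specimens stand as the baseline for both 40 h groups, and an effect of the inhibitor before surgery cannot be told apart from its effect afterwards. The labels do not say whether a replicate number marks a litter or a batch, or whether a resection specimen and a vehicle-treated remnant with the same number came from 1 mouse, so the p-values measure the spread between these libraries.

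Most histone mRNAs made in S phase carry no poly(A) tail. Their pre-mRNAs are cut just after a short stem-loop in the 3′ untranslated region, the stem-loop binding protein SLBP holds that structure, and the U7 small nuclear ribonucleoprotein guides the cut. Some genes of these clusters are also known to yield polyadenylated mRNAs that end further downstream, as replacement histone genes outside the clusters do. The libraries were made with a stranded mRNA kit that selects RNA by its poly(A) tail, so the values below describe the polyadenylated fraction of these genes' RNA and not their whole output.

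The stem-loop is the feature that links the members, and it was sought as the letters GGNNCTTNTNAGNNCC on the sense strand of the GENCODE M21 transcripts (GRCm38). Of the 68 members, 44 (64.7%) had a match in at least 1 transcript, against 209 of 58797 protein coding transcripts (0.355%). Hist1h2bm and Hist1h2bh were not listed there and could not be searched. A stem-loop past the end of an annotated transcript would be missed, so a gene with no match need not lack one. Among the members with the largest counts, the 26 bases around it are shown for a linker histone, an H4, an H3 and an H2B gene, with the 16 bases of the stem-loop in capitals and 5 bases on each side.
Hist1h1c: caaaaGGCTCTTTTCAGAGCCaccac
Hist1h4i: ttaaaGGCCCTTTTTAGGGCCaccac
Hist2h3c1: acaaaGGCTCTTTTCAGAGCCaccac
Hist1h2bg: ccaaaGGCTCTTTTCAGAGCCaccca
The 44 members held 8 different stem-loops. That of Hist1h1c, Hist2h3c1 and Hist1h2bg was shared by 24 members, none of them an H4 gene, and that of Hist1h4i by 2, both H4 genes. The 12 H4 genes with a match fell into 4 of the 8 forms, and no form was shared between an H4 gene and a gene of another type. Hist1h2bc and Hist2h2be, the members with the highest and the third highest mean count, had no match in their annotated transcripts. The letters say nothing of whether the RNA was cut there.

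The starts of many H2A and H2B genes face each other across a short shared stretch. The stretches beside Hist1h2bc and Hist2h2be are shown because those H2B genes carry much of what follows. Both sequences come from the RefSeq promoter table (GRCm38.p6), reach from the base after the H2B gene's start to the base before the RefSeq start of the H2A gene, and are read toward the H2A gene. Capitals mark the TATA box letters TATAAA, the letters CCAAT and the octamer ATTTGCAT, each sought on both strands. The first lies at chr13:23683960-23684198 on the minus strand, between Hist1h2bc and Hist1h2ac, and the second at chr3:96220881-96221118 on the minus strand, between Hist2h2be and Hist2h2ac.
Hist1h2ac: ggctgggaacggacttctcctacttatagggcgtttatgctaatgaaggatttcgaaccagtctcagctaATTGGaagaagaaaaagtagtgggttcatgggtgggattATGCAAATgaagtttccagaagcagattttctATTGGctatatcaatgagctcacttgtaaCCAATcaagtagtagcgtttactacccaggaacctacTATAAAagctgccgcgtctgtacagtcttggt
Hist2h2ac: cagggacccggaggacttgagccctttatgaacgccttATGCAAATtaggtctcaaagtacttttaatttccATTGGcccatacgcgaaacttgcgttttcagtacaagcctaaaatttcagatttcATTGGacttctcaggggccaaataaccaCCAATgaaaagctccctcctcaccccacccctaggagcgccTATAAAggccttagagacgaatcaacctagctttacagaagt
Each stretch held 1 TATAAA, 3 CCAAT and 1 ATTTGCAT. The promoter table held 61 members. Over its windows, CCAAT occurred in 85.2% of members and 37.4% of all 32544 promoters, TATAAA in 57.4% and 13.6%, and ATTTGCAT, the octamer known from H2B promoters, in 21.3% and 1.75%. The octamer was found at 7 of 17 H2A and 6 of 16 H2B promoters and at no H1, H3 or H4 promoter in the table, and CCAAT was found at 3 of 12 H4 promoters and at every H1, H2A, H2B and H3 promoter.

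The libraries held between 23997363 and 42887589 counts, and members took between 0.00678% and 0.0149% of them. The 8 hepatocyte markers, albumin among them, summed to between 108000 and 152000 CPM (counts scaled to library size) in the 9 libraries, as the label liver implies. RNAs without a poly(A) tail, such as the 7SK and RNase MRP RNAs, gave 9 to 24 counts a library over the 10 listed, 0.233 to 0.727 CPM. On the second principal component of all genes, with 13.2% of the variance, NSC replicate 1 lay at -31 beside the vehicle remnants, while NSC replicates 2 and 3 lay at 32.5 and 54. For the called members and for several proliferation-linked genes, values without NSC replicate 1 are given as well.

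Polyadenylated RNA of the clustered histone genes came almost wholly from a pair of genes. Hist1h2bc, an H2B gene at chr13:23684199-23692488, and Hist1h1c, a linker histone gene at chr13:23738808-23740367, together held 91.6% to 92.5% of all member counts at baseline. At 40 h the pair held 81.9% to 87.4% in vehicle-treated and 82.9% to 87.2% in NSC-treated mice. The lowest share, 81.9% in vehicle replicate 3, had a 95% Wilson interval of 80.5% to 83.3%, which covers counting error only. The share of the pair was lower in each 40 h library than in each baseline library.

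Per length, on the deposited FPKM scale (counts divided by the length of the gene model and by library size), Hist1h2bc stood at 80.6 ± 17.8 (SD, n = 3) at baseline, 58.5 ± 16.5 in vehicle-treated and 66.7 ± 17.7 in NSC-treated remnants. The FPKM level of Hist1h1c was 28.2 ± 7.21, 24.3 ± 4.84 and 32.7 ± 11.0 in the same order. By the mean over the 9 libraries, the third highest FPKM level belonged to Hist1h2bg, an H2B gene, at 3.98 ± 0.455, 2.87 ± 1.14 and 1.76 ± 0.977. On the FPKM scale Hist1h2bc and Hist1h1c thus kept their order in all 3 groups, and the gene below them was at least an order of magnitude beneath Hist1h2bc. By mean CPM, which is not per length, the order turned in NSC-treated remnants, at 45.9 for Hist1h2bc and 48.0 for Hist1h1c. Below that, Hist2h2be had an FPKM level of 0.686 ± 0.183 at baseline and 2.42 ± 0.868 in NSC-treated remnants, where it stood above Hist1h4i (1.88 ± 0.603) and Hist1h2bg by less than the SDs of these genes. The mean FPKM over 9 libraries was 0.983 for Hist2h3c1, 0.755 for Hist3h2a and 0.671 for Hist2h2aa1, and was at most 0.436, that of Hist2h3c2, for the members after these.

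**Figure D1:**
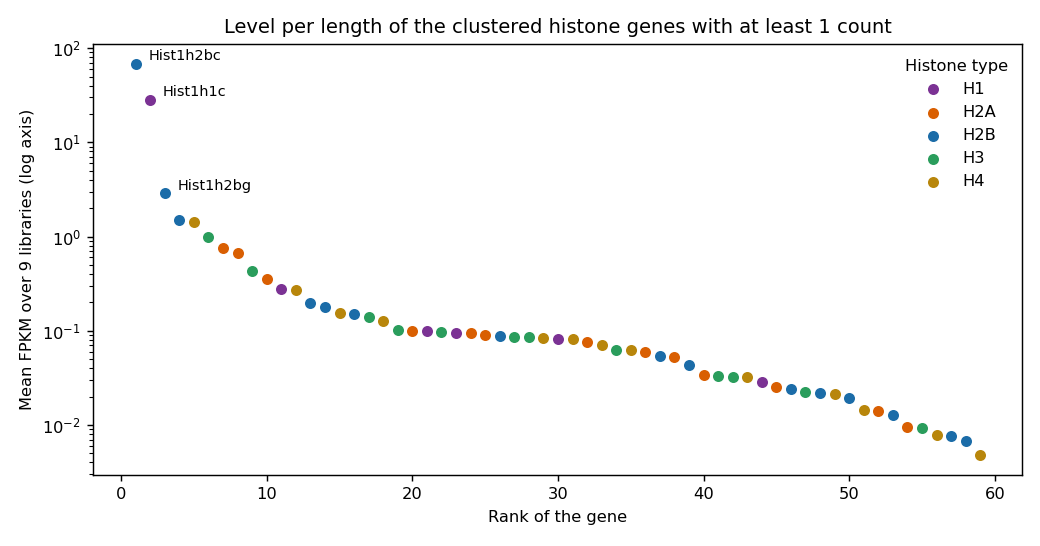
Mean deposited FPKM over the 9 libraries (log axis) against rank for the 59 clustered histone genes with at least 1 count, coloured by histone type. Hist1h2bc (68.6) and Hist1h1c (28.4) stand apart from the remaining genes, of which Hist1h2bg (2.87) is the highest.

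Of the 68 members, 9 had no count in any library, and 39, these 9 included, never exceeded 3 counts in a library. A count of 0 allowed a level of up to 0.0751 to 0.117 CPM in a library, depending on its depth. The genes listed at 0 were Hist1h2ak, Hist1h2an, Hist1h2bq, Hist1h2ap, Hist1h2br, Hist1h2ag and Hist1h2af, and the testis genes Hist1h2ba and Hist1h2aa. Little of some of them is unique. Free of a match in another gene's transcript, on either strand, were 2.7% of the 50-base stretches of Hist1h2bq, 6.0% of Hist1h2af, 6.9% of Hist1h2ap and 11.3% of Hist1h2br. The limit for a count of 0 thus covers counting error only and not reads lost to shared sequence. A further 15 members had a highest count between 4 and 9, and 14 reached 10 counts in some library, 7 of them in every library. Only 10 members passed the expression filter of edgeR and were tested, among 15024 genes: Hist1h1c, Hist3h2a, Hist2h2aa1, Hist1h2bc, Hist2h2be, Hist1h2bg, Hist1h2be, Hist2h3c1, Hist2h3c2 and Hist1h4i.

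The 58 members that did not pass were near the detection limit in each group. Their summed counts were 38 to 53 at baseline, 62 to 90 in vehicle-treated and 55 to 94 in NSC-treated remnants. On the CPM scale after TMM scaling (used for all CPM values here), these sums ranged from 1.16 to 1.75 at 0 h, from 1.61 to 3.32 with vehicle and from 1.65 to 3.68 with NSC. Only 39 members had a count in any baseline library, against 51 in vehicle-treated and 53 in NSC-treated remnants. These are sums over genes that the filter left out, and they carry no test.

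The gene models of the authors differ in how far they run past the stem-loop, which decides how much downstream RNA can be counted. Measured along the genome, introns included, they ran more than 100 bases past it for 14 members, of which 6 passed the filter. They ended at most 100 bases past it, or before it, for 30, of which 2 passed (Hist1h2bg and Hist2h2aa1). Among the 14, Hist1h2bp, which did not pass, had a distance of 1275 bases, more than the 706 bases of its model. Its transcript with the stem-loop ends 38 bases past it. Of the 24 members with no match, 2 passed, Hist1h2bc and Hist2h2be. Several of the 24 have short annotated transcripts, such as Hist1h4k with 312 bases and Hist1h2bl with 381. This class therefore cannot be read as genes without a stem-loop. The median of total counts over 9 libraries was 35 in the first of these classes, 10 in the second and 3.5 in the third. Counts grow with the length of a model, and the median FPKM levels, per length, were 0.0942, 0.0826 and 0.0247, so the first and second classes were nearly alike on that scale. A poly(A) signal, AATAAA or ATTAAA in the last 40 bases of a transcript on the sense strand, was found in 17 of the 66 members that GENCODE M21 lists (25.8%, against 48.7% of all protein coding transcripts), in 6 of the 10 that passed the filter and in 11 of 56 that did not. For 9 members the authors' model ended within 100 bases of the stem-loop where GENCODE M21 runs further, and only 1 of these, Hist1h2bg, was among the genes tested.

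**Figure D2:**
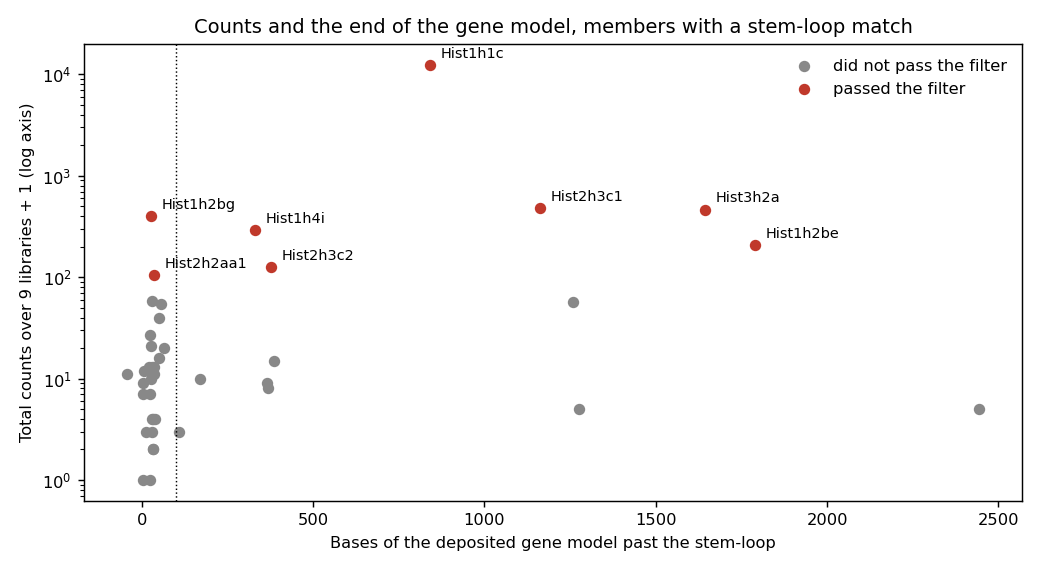
Total counts over the 9 libraries plus 1 (log axis) for the 44 clustered histone genes with a match, against how far the authors' gene model runs past the stem-loop. The bases were measured along the genome, introns included. A negative value means that the model ends before the stem-loop, and the dotted line marks 100 bases. Among the 14 models that run further, the 6 tested genes (red) lie between 330 bases for Hist1h4i and 1789 bases for Hist1h2be. The 8 genes that did not pass have fewer counts and lie between 108 bases for Hist1h4a and 2445 bases for Hist4h4.

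Many members are near-copies of each other. Matches of 50-base stretches in another gene's transcript were sought on both strands and included genes annotated over the same bases. A match thus need not mark a copy. For 34 members, less than 50% of their 50-base stretches were free of a match in another gene's transcript. The median share of such stretches was 69.0% for the genes tested and 42.5% for the others. Hist2h3c1 and Hist2h2aa1 shared every 50-base stretch with another gene, a copy or a gene annotated over the same bases. Their counts may thus rest on how reads were assigned between these genes. In GENCODE M21, exons of Hist1h2be share bases on the same strand with Hist1h1e and Gm11398. Those of Hist2h3c1 share bases with Gm20634 and those of Hist3h2a with Trim17. Reads in shared bases cannot be assigned with certainty. The authors' models of Hist1h2be (chr13:23583742-23621124) and Hist1h1e (chr13:23621755-23622502) do not overlap, and how reads between them were assigned was not tested.

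The H2A and H2B genes lie head to head in 12 pairs, with starts 236 to 306 bases apart, and in the 3 pairs with the most counts the H2B gene held nearly all of them. Hist1h2bc had 14445 counts over the 9 libraries, while Hist1h2ac, whose start is 275 bases away, had 10. Hist2h2be had 1071 counts and Hist2h2ac, 239 bases away, had 53. Hist1h2bg had 398 counts and Hist1h2ae, 287 bases away, had 11. Per length, the mean FPKM levels were 68.6 and 0.0765 in the first pair, 1.49 and 0.352 in the second and 2.87 and 0.0909 in the third, so the gap between Hist2h2be and Hist2h2ac was smaller on that scale. In Hist1h2bf and Hist1h2ad the totals were equal, 12 and 12, and in the other 8 pairs neither gene exceeded 10 counts. The H2A models are short: that of Hist1h2ac spans 476 bases and ends 28 bases past its stem-loop, where GENCODE M21 runs 2010 bases past it, so polyadenylated RNA of that gene could lie outside the counted bases.

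**Figure D3:**
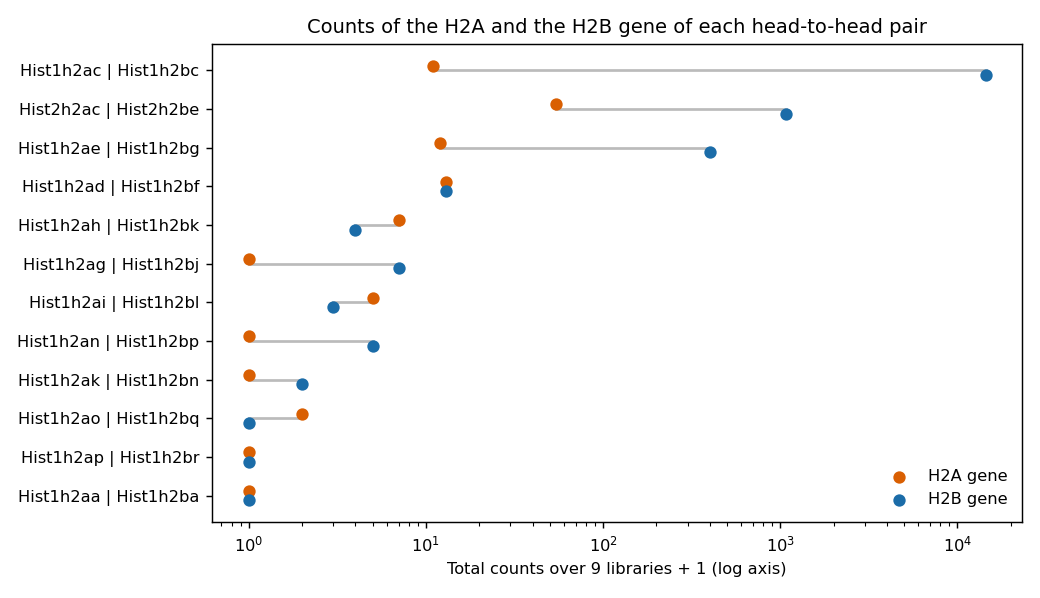
Total counts over the 9 libraries plus 1 (log axis) of the H2A gene (orange) and the H2B gene (blue) of each of the 12 head-to-head pairs. In the top 3 pairs the H2B gene lies far to the right of its H2A partner, as with 14445 counts for Hist1h2bc against 10 for Hist1h2ac.

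The first comparison asked how the histone genes of vehicle-treated mice stood 40 h after hepatectomy against the resection specimen. Hist2h2be, an H2B gene of the Hist2 cluster, rose by about 1 on the log2 scale and was the only one of 10 members tested that was called, where 23.7% of all genes tested were. That call was lost under 7 of 17 alternatives. Hist1h2bc and Hist1h1c, the genes with nearly all the counts, had log2 fold changes below 0 that did not pass the test, and the summed level of the clustered histone genes overlapped its baseline. All 6 reference genes of S phase and proliferation were called higher, with a median log2 fold change of 3.59.

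The 68 members summed to 120.9, 87.73 and 140.4 CPM in the baseline libraries and to 103.7, 75.31 and 111.8 CPM in the vehicle-treated remnants. The groups overlapped, and the ratio of their means was -0.26 on the log2 scale, within 1 SD of the libraries. Without Hist1h2bc and Hist1h1c, the other 66 members summed to 9.30 ± 2.12 CPM at baseline and 14.3 ± 5.40 CPM in the vehicle-treated remnants. By type, the H3 genes summed to 1.33 ± 0.813 and 2.90 ± 2.27 CPM and the H4 genes to 1.01 ± 0.190 and 1.97 ± 0.605 CPM. The H3 sums overlapped and the H4 sums, 0.794 to 1.16 CPM at baseline and 1.30 to 2.47 CPM at 40 h, did not; these sums carry no test.

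Of the 10 members tested, 1 was called higher and none lower at an adjusted p under 0.05, against 12.7% of all genes higher and 11.0% lower. The edgeR quasi-likelihood test with Benjamini-Hochberg adjustment over all genes gave these calls, and DESeq2 called the same 1 gene. It was also the 1 member with an unadjusted p under 0.05 by edgeR, against 37% of all genes. The median log2 fold change over the 10 members was 0.59, against 0.01 over all genes tested. Among the 10, the libraries of both groups did not overlap for 1 member on the higher side and for none on the lower, against 24.2% and 22.0% of all genes. With a log2 fold change over 1.5 also required, no member and 7.22% of all genes were called.

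Hist2h2be (chr3:96221119-96223738), which encodes an H2B, had 57, 46 and 72 counts at baseline, or 1.80, 1.41 and 2.38 CPM, and 135, 129 and 119 counts in vehicle-treated remnants, or 3.38, 3.34 and 4.39 CPM. Each remnant lay above each baseline library. Its log2 fold change was 0.99 (SE 0.32), with an adjusted p of 0.0429 by edgeR's quasi-likelihood test. The call was close to the threshold and was lost when any of baseline replicates 1 and 2, vehicle replicates 1, 2 and 3 or NSC replicate 2 was left out and with a correction for GC content, with log2 fold changes between 0.82 and 1.21 over these and the other alternatives. All of its 50-base stretches were unique to it and its model overlapped no other gene's exons, so no copy in that annotation shares its reads.

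Hist1h2bc, which held the most counts among the H2B genes, had 66.5, 46.3 and 71.8 CPM at baseline and 50.9, 33.1 and 47.4 CPM in vehicle-treated remnants. The groups overlapped through baseline replicate 2, and its log2 fold change of -0.49 (SE 0.23) had an adjusted p of 0.143 by edgeR. Hist1h1c, a linker histone gene, had 45.4, 34.1 and 57.0 CPM at baseline and 39.6, 32.6 and 44.3 CPM in the remnants, a log2 fold change of -0.23 (SE 0.24) with an adjusted p of 0.532 by edgeR. In each of the 3 groups the library numbered 2 was the lowest for both genes. Hist1h2bg, an H2B gene, had 2.12, 1.71 and 2.08 CPM and then 1.28, 0.933 and 1.99 CPM, where vehicle replicate 3 reached into the baseline range.

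The H3 and H4 genes tested had log2 fold changes above 0 that did not pass the test. Hist2h3c1, an H3 gene, had 0.821, 0.366 and 1.55 CPM at baseline and 1.30, 0.700 and 3.84 CPM in vehicle-treated remnants, and vehicle replicate 3 alone lay above all baseline libraries. Vehicle replicate 3 was also the highest remnant for Hist1h2be, at 1.99 CPM against 0.450 and 0.233 CPM, and for Hist2h3c2, at 1.07 CPM against 0.475 and 0.363 CPM. Without that library the log2 fold change of Hist2h3c1 was 0.14 in place of 1.07 and that of Hist1h2be 0.05 in place of 1.37. Hist1h4i, an H4 gene, had 0.790, 0.336 and 0.891 CPM and then 1.63, 0.752 and 0.923 CPM, a log2 fold change of 0.72 with an adjusted p of 0.271 by edgeR. Without vehicle replicate 1 the log2 fold change of Hist1h4i was 0.32. The H2A genes Hist3h2a and Hist2h2aa1 had log2 fold changes of 0.46 (SE 0.37) and 0.06 (SE 0.57) and overlapped their baseline.

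**Figure D4:**
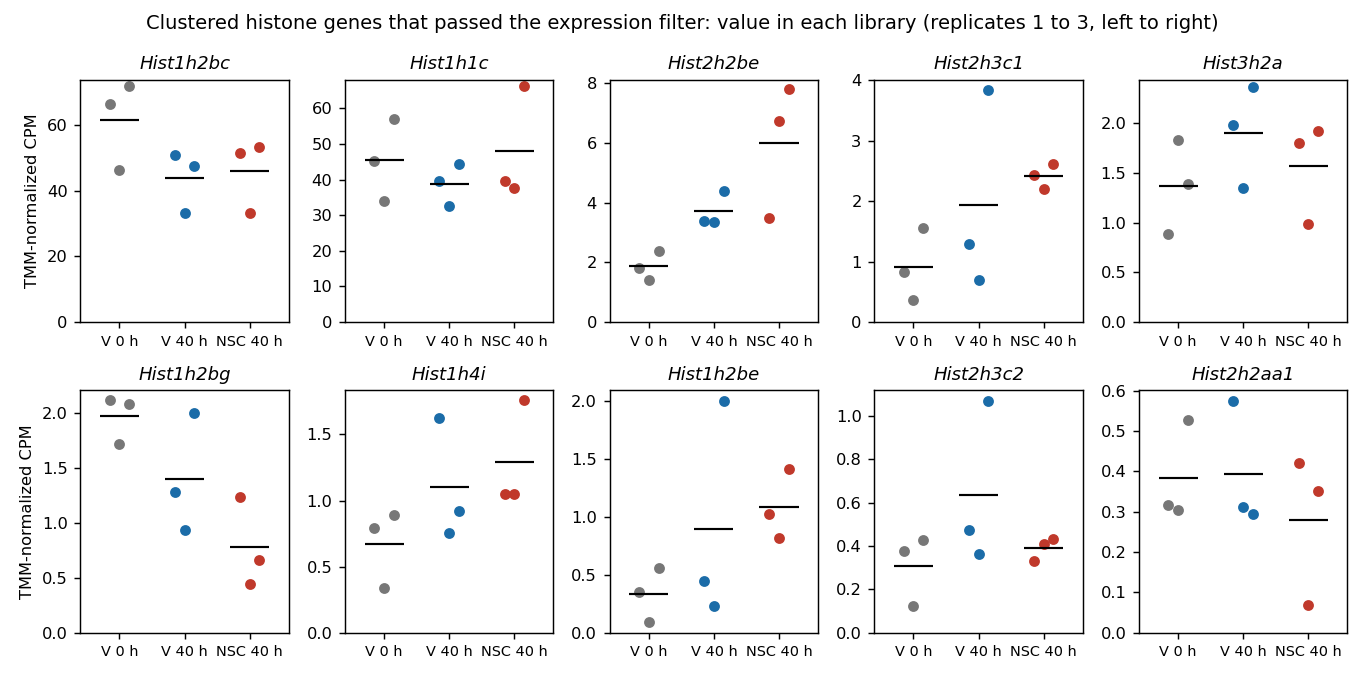
TMM-normalized CPM in each library for the 10 clustered histone genes tested, grey for vehicle 0 h, blue for vehicle 40 h and red for NSC 40 h, with replicates 1 to 3 from left to right and a line at each mean; each panel has its own axis from 0. Hist2h2be rises from 1.41 to 2.38 CPM at baseline to 3.34 to 4.39 CPM in vehicle-treated remnants, and NSC replicate 1 (3.48 CPM) lies among the latter.

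The second comparison set the NSC-treated remnants against the same 3 resection specimens. Hist2h2be rose by 1.69 and the H2B gene Hist1h2bg fell by 1.32 on the log2 scale. These were the 2 called of 10 members tested, where 34.7% of all genes were called, and the call of Hist1h2bg was lost under 5 of 17 alternatives. Hist2h2be and the H3 gene Hist2h3c1 carried a higher summed level of the Hist2 cluster on chromosome 3, while the sum of the other 8 genes of that cluster overlapped its baseline. The summed level of all members overlapped its baseline.

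The 68 members summed to 104.5, 85.74 and 140.2 CPM in the NSC-treated remnants, a ratio of means to the baseline of -0.08 on the log2 scale. Hist2 cluster genes summed to 3.57, 2.63 and 5.48 CPM at baseline and to 7.20, 9.58 and 11.6 CPM in NSC-treated remnants. In vehicle-treated remnants the Hist2 sums were 5.98, 5.05 and 11.0 CPM, and vehicle replicate 2 lay below the highest baseline library. Without Hist2h2be and Hist2h3c1, the other 8 genes summed to 1.12 ± 0.378 CPM at baseline and 1.05 ± 0.352 CPM with NSC. The 66 members other than Hist1h2bc and Hist1h1c summed to 16.2 ± 3.85 CPM with NSC, and their lowest NSC-treated library, at 13.4 CPM, lay above the highest baseline library, at 11.6 CPM.

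Of the 10 members, 1 was called higher and 1 lower by edgeR's quasi-likelihood test at an adjusted p under 0.05, against 18.2% of all genes higher and 16.5% lower. DESeq2 called these and Hist2h3c1. At an unadjusted p under 0.05 by edgeR there were 3 members, against 45.2% of all genes. The median log2 fold change was 0.26 over the members and 0.01 over all genes tested. With no overlap between the groups, 4 of the 10 were higher and 1 lower, against 24.0% and 23.1% of all genes. The 4 were Hist2h2be, Hist2h3c1, Hist1h4i and Hist1h2be. With a log2 fold change over 1.5 also required, 1 member, Hist2h2be, and 8.13% of all genes were called.

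Hist2h2be had 116, 198 and 199 counts in NSC-treated remnants, or 3.48, 6.72 and 7.79 CPM, against 1.80, 1.41 and 2.38 CPM at baseline. All 3 lay above the baseline, with NSC replicates 2 and 3 above every other library of the study. Its log2 fold change was 1.69 (SE 0.32) with an adjusted p of 0.00227 by edgeR, and it was 1.96 without NSC replicate 1. The call held under every alternative tried, with log2 fold changes between 1.44 and 1.96.

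Hist1h2bg (chr13:23571408-23571884), an H2B gene counted over a short model that ends 26 bases past its stem-loop, had 41, 13 and 17 counts in NSC-treated remnants, or 1.23, 0.441 and 0.665 CPM. At baseline it had 67, 56 and 63 counts, or 2.12, 1.71 and 2.08 CPM, and each NSC-treated library lay below each baseline library. The log2 fold change was -1.32 (SE 0.41) with an adjusted p of 0.0259 by edgeR. The call was lost without baseline replicate 1, baseline replicate 3, NSC replicate 2 or NSC replicate 3 and with a correction for GC content, and the log2 fold change was -1.83 without NSC replicate 1. Hist1h2bg and Hist2h2be both encode H2B, and their counted RNA differed in direction from the baseline in the same libraries. Of the 50-base stretches of Hist1h2bg, 50.3% were free of a match in another gene's transcript, against 100% for Hist2h2be.

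Hist2h3c1, an H3 gene, had 2.43, 2.21 and 2.62 CPM with NSC against 0.821, 0.366 and 1.55 CPM at baseline, with no overlap, and its log2 fold change of 1.41 (SE 0.62) had an adjusted p of 0.102 by edgeR. Hist1h2be, an H2B gene, had 1.02, 0.815 and 1.41 CPM against 0.348, 0.0916 and 0.561 CPM, a log2 fold change of 1.69 (SE 0.78) with an adjusted p of 0.116. Hist1h4i had 1.05, 1.05 and 1.76 CPM against 0.790, 0.336 and 0.891 CPM, a log2 fold change of 0.93 (SE 0.45) with an adjusted p of 0.129. These 3 genes stood above the baseline in each NSC-treated library, and none passed the test across all genes. Without vehicle replicate 3, which enters the shared estimate of spread, Hist2h3c1 and Hist1h2be were called in addition to Hist2h2be and Hist1h2bg.

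Hist1h2bc had 51.4, 33.3 and 53.2 CPM with NSC, a log2 fold change of -0.42 (SE 0.23) against the baseline with an adjusted p of 0.174 by edgeR. Hist1h1c had 39.7, 37.8 and 66.4 CPM, a log2 fold change of 0.08 (SE 0.24) with an adjusted p of 0.833, and its sign turned to -0.23 without NSC replicate 3. Both genes overlapped their baseline. Hist2h3c2 (log2 fold change 0.33), Hist3h2a (0.19) and Hist2h2aa1 (-0.44) also overlapped their baseline.

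**Figure D5:**
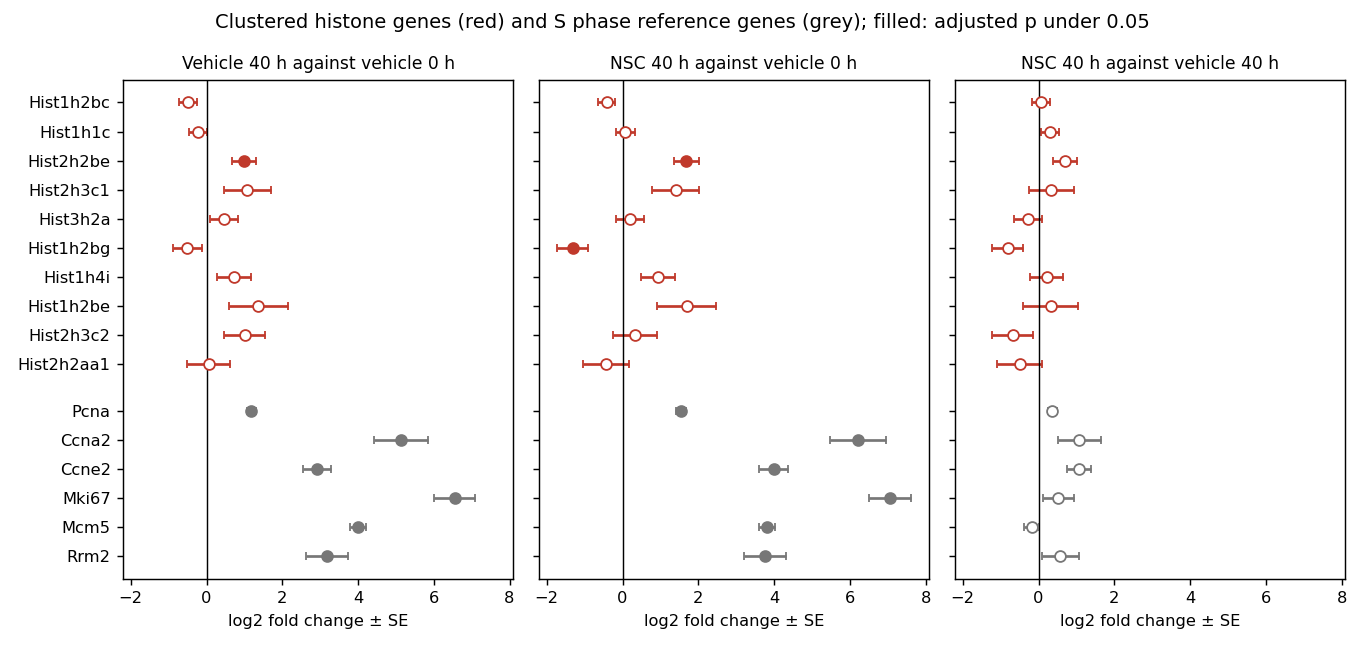
Log2 fold change ± SE of the 10 clustered histone genes tested (red) and of 6 S phase reference genes (grey) in each comparison; filled points had an adjusted p under 0.05 by edgeR. Against the baseline the reference genes lie between 1.18 and 7.07, and the called histone genes are Hist2h2be (0.99 and 1.69) and, with NSC, Hist1h2bg (-1.32).

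The third comparison, NSC-treated against vehicle-treated remnants at 40 h, asked what the inhibitor added. No member was called by edgeR's quasi-likelihood test, where 0.0399% of all genes, 6 in number, were called, and DESeq2 called no member either. At an unadjusted p under 0.05 there was 1 member, Hist2h2be, against 19.5% of all genes. None of the 10 members tested had groups without overlap, against 10.3% of all genes on the higher and 12.2% on the lower side, and none passed with a log2 fold change over 1.5, against 0.0200% of all genes. Outside the test, Hist1h2ac on the higher and Hist1h2al on the lower side had groups without overlap, at no more than 3 counts in any of these libraries. The median log2 fold change was 0.14 over the members and 0.02 over all genes.

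Hist2h2be had 3.48, 6.72 and 7.79 CPM with NSC and 3.38, 3.34 and 4.39 CPM with vehicle, a log2 fold change of 0.69 (SE 0.31) with an adjusted p of 0.246 by edgeR. NSC replicate 1 lay within the vehicle range and the other NSC-treated libraries above it. Without NSC replicate 1 the log2 fold change of Hist2h2be was 0.97, with an adjusted p of 0.0431 by edgeR. The gene was not called under the other 16 of 17 alternatives, and without NSC replicate 3 the log2 fold change was 0.46. Hist1h2bg had a log2 fold change of -0.82 (SE 0.41) with an adjusted p of 0.292, its groups overlapping through vehicle replicate 2 and NSC replicate 1. The log2 fold change of Hist1h2bc was 0.07 (SE 0.23), and that of Hist1h1c was 0.30 (SE 0.24) with an adjusted p of 0.506 by edgeR. The summed CPM of the members had a ratio of 0.18 on the log2 scale, with the groups overlapping. These p-values miss the threshold and do not show that the groups were alike.

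S phase and proliferation reference genes, 6 of 6, were called higher in both 40 h groups against the baseline by edgeR, with median log2 fold changes of 3.59 and 3.90. Pcna, the sliding clamp of DNA replication, had log2 fold changes of 1.18 with vehicle and 1.55 with NSC, Ccna2, the S phase cyclin, 5.13 and 6.21, and the proliferation marker Mki67 6.55 and 7.07. NSC replicate 1 had 13.6 CPM of Ccna2 against 84.2 and 79.1 CPM in the other NSC-treated libraries, and without it the log2 fold changes with NSC were 6.68 for Ccna2 and 7.45 for Mki67. Both comparisons share the baseline libraries.

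Of 20 genes for histone mRNA 3′ end formation and its control, 10 were called higher and 1 lower in vehicle-treated remnants by edgeR, against 12.7% and 11.0% of all genes tested. With NSC 12 were called higher and 2 lower, against 18.2% and 16.5%. Their median log2 fold changes were 0.51 and 0.57. The list includes the cell cycle genes Cdk2, Ccne1 and Ccne2. Ccne1 (3.22 and 3.22) and Ccne2 (2.92 and 3.99) were called higher in both, and Cdk2 (0.32 and 0.47) only with NSC. Ccne2 is also 1 of the 6 S phase and proliferation reference genes. Slbp, whose product binds the stem-loop printed above, had log2 fold changes of 0.99 and 1.37, both called. Zfp473, a zinc finger partner of the U7 particle, had 3.21 and 3.78, and Eri1, an exonuclease that trims the histone mRNA end, 1.00 and 1.62, all called. Npat, the coactivator of histone gene transcription, had 0.72 and 1.07, both called, while Casp8ap2, its companion in the histone locus body, had 0.61 (adjusted p = 0.0685, edgeR) and 1.19, of which the second was called. The call of Npat with vehicle was lost when any vehicle library or baseline replicate 1 or 3 was left out, and Casp8ap2 was called with vehicle without NSC replicate 1 or 3. Lsm10, a subunit of the U7 particle, was called lower in both, at -0.91 and -0.73. Sympk, the scaffold of the cleavage complex, had -0.03 (adjusted p = 0.897) with vehicle and -0.71 with NSC, of which the second was called. With NSC both calls were lost with the GC correction, and that of Lsm10 also without baseline replicate 3 or NSC replicate 2.

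Histone genes outside the clusters yield polyadenylated mRNAs. Of 12 tested, 2 were called higher in vehicle-treated remnants and 4 higher with NSC by edgeR, against 12.7% and 18.2% of all genes, so with vehicle their share was near that of all genes. H2afx, the H2A form phosphorylated at DNA breaks, had log2 fold changes of 2.29 and 2.75, and Cenpa, the H3 form of centromeres, 3.16 and 4.32, all called. The call of Cenpa with vehicle was lost when any baseline library or vehicle replicate 1 was left out and with the replicate number as a block. H2afz, an H2A form found at promoters, had 1.24 (adjusted p = 0.0854) and 2.06, of which the second was called. H2afz was called with vehicle by DESeq2 and without NSC replicate 1 or 3. NSC replicate 1 stood apart in these genes, at 9.15 CPM of Cenpa against 77.2 and 73.6 CPM in the other NSC-treated libraries and at 34.3 CPM of H2afz against 98.8 and 165 CPM. Without it the log2 fold changes with NSC were 4.82 for Cenpa, 2.47 for H2afz and 3.13 for H2afx. H3f3a and H3f3b, which encode the replacement histone H3.3, were not called, at 0.06 and -0.33 with vehicle and 0.30 and -0.28 with NSC. Among 20 histone chaperones and supply factors, 7 were called higher with vehicle, against 12.7% of all genes, and 11 higher and 2 lower with NSC, against 18.2% and 16.5%. Asf1b, which hands H3 and H4 to the replication fork, had 3.92 and 4.45, Chaf1a, the large subunit of chromatin assembly factor 1, 2.93 and 2.95, Hat1, which acetylates new H4, 1.47 and 2.24, and Nasp, which holds the H3 and H4 reserve, 0.54 and 1.06, all called. The call of Nasp with vehicle was lost when any baseline library or vehicle replicate 3 was left out.

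Summed levels of marker genes of other cell types also differed between the groups. Summed over 8 macrophage and Kupffer cell markers, levels ran from 129 to 185 CPM in the resection specimens, from 109 to 204 CPM with vehicle at 40 h and from 206 to 347 CPM with NSC. The 8 neutrophil markers summed to 1.86 to 6.51, 8.08 to 15.4 and 11.3 to 16.9 CPM, the 9 erythroid markers to 229 to 329, 106 to 187 and 130 to 231 CPM, and the 5 B and plasma cell markers to 14.4 to 21.2, 2.36 to 12.2 and 4.89 to 8.13 CPM. The 6 stellate cell markers summed to 169 to 206, 261 to 316 and 205 to 346 CPM, the 6 endothelial markers to 173 to 180, 110 to 177 and 127 to 226 CPM, the 4 cholangiocyte markers to 4.28 to 6.54, 15.0 to 18.6 and 8.73 to 11.4 CPM, and the 7 T and NK cell markers to 1.37 to 3.63, 0.554 to 0.881 and 1.29 to 2.01 CPM. Single genes carried some of these sums. Marco, a macrophage receptor, had means of 3.81, 39.8 and 65.5 CPM in the order baseline, vehicle and NSC, and Alas2, the first enzyme of heme synthesis in erythroid cells, had 152, 42.7 and 50.1 CPM. Over the 8 macrophage markers the median log2 fold change against the baseline was 0.01 with vehicle and 1.04 with NSC. By edgeR 2 of them were called higher with vehicle and 4 with NSC, against 12.7% and 18.2% of all genes. All 8 macrophage markers were detected in each library. The macrophage sum was highest, at 347 CPM, in NSC replicate 1 and lowest, at 109 CPM, in vehicle replicate 3. The part of these cells in the levels of the histone genes was not tested, and in whole liver a change in the number of cells and a change in RNA per cell cannot be told apart.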

How the data were processed

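RNA of whole mouse liver was sequenced in 9 libraries made with a stranded mRNA kit. The authors aligned the reads with STAR 2.6.1 and assigned them to genes with featureCounts of Subread 1.5.1, per library. The deposited table holds raw counts per gene and FPKM values that the authors computed from them by gene length and library size. The labels name a human build, but the identifiers and coordinates are those of mouse GRCm38. Libraries were grouped by their titles. The counts were tested with edgeR 4.0.16 (TMM factors, filterByExpr, robust quasi-likelihood fit of all 9 libraries with group as the only term), with Benjamini-Hochberg adjustment over 15024 genes and a threshold of 0.05. FPKM values were used only to compare levels between genes, without a test. The script was tested on simulated data.

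The members and gene lists were chosen with earlier results of these data known. Members named with values were the highest by FPKM and CPM, the called ones, and those with an unadjusted p under 0.05 between the remnants. Alternatives were other normalization factors, other filters, DESeq2 1.42.0, fits of only the groups compared, a replicate block, a fold threshold, each library left out, and a GC correction, chosen after seeing the data. Stem-loops, uniqueness and overlaps came from GENCODE M21, and 66 members were found there by identifier. Total counts set the precision: 3 counts corresponded to 0.0751 to 0.117 CPM. Libraries within a group differed by a chi-square of 22.9 to 140 per gene, so none was a duplicate. The correlation of deviations was -0.048 to 0.134 between libraries with the same number and -0.115 to 0.066 between those with different numbers. The ranges overlapped, and the numbers were not taken to pair the libraries.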

Additional observations from a re-analysis of the deposited data

Results flagged for a closer look

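A processed pseudogene of the histone clusters, Hist3h2bb-ps on chromosome 11, lay outside the 68 protein coding members and had 6 counts in NSC replicate 1, where the 3 baseline libraries had 0. It had 1 count in NSC replicate 2, none in NSC replicate 3, and 2 counts in vehicle replicate 2. The difference between groups was not tested.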

How the results depend on the processing

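The ratios of summed CPM moved by less than the spread between libraries under all 8 alternatives run in each comparison, although that of NSC against the baseline turned from -0.08 to 0.06 with library size only. Other factors, other filters and DESeq2 left the number of members called within 1.5 times. Fitting only the groups compared gave 4 members for NSC against the baseline. With a log2 fold change over 1.5 the numbers were 0 for vehicle and 1 for NSC against the baseline, and with the GC correction 0 and 1. Leaving out 1 library gave 0 to 1 members for vehicle against the baseline, 1 to 4 for NSC against the baseline and 0 to 1 for NSC against vehicle, where Hist2h2be was called without NSC replicate 1. These numbers stand without the share of all genes called under the same alternative, so they are not a result about the members. The cause of the differences between alternatives was not tested.

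With the replicate number as a block, 2 members were called for vehicle against the baseline (Hist1h2bc lower in addition), 5 for NSC against the baseline (Hist1h2bc, Hist1h2be and Hist2h3c1 in addition) and 0 between the remnants. The share of all genes called with this block is not given here, so these numbers are not a result about the members. Hist1h2bc had adjusted p values of 0.0193 and 0.0258 against the baseline under this block, by edgeR, and was lower in each of the 3 vehicle-treated remnants than in the resection specimen of the same number. Whether the same number marks the same mouse is not given. Correlations of deviations ran from -0.048 to 0.134 for same-numbered libraries and from -0.115 to 0.066 for those with different numbers. These low and overlapping ranges do not decide whether the numbers mark pairs.

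Values near 0 changed sign. With the GC correction, log2 fold changes became 0.050 for Sympk and -0.048 for H3f3a (vehicle against the baseline), -0.023 for Hist3h2a, 0.26 for Hist2h2aa1 and -0.049 for H3f3a (NSC against the baseline) and -0.0730 for Hist1h2bc (NSC against vehicle). With 1 library left out at a time, they ranged for vehicle against the baseline from -0.32 to 0.36 for Hist2h2aa1 and -0.12 to 0.079 for Sympk. For NSC against the baseline they ranged from -0.23 to 0.27 for Hist1h1c, -0.044 to 0.46 for Hist3h2a, -0.059 to 0.63 for Hist2h3c2 and -0.89 to 0.024 for Hist2h2aa1. For NSC against vehicle they ranged from -0.099 to 0.25 for Hist1h2bc, -0.0035 to 0.45 for Hist1h1c, -0.074 to 1.27 for Hist2h3c1, -0.074 to 0.61 for Hist1h4i and -0.15 to 1.64 for Hist1h2be. Low counts limit the 58 members outside the test, of which 39 never exceeded 3 counts in a library. The reason for the low counts was not tested.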
